A study of Homo sapiens with 2 samples.

Results

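The genes described here are the numbered zinc finger genes of human chromosome 19, chosen as every entry of the deposited table whose symbol is ZNF, a number and at most 1 letter and whose position is on that chromosome. The rule used names and positions, not measured values. It found 262 of the 50867 gene entries, of which 246 are annotated as protein-coding and 16 as pseudogenes. RNA came from HCT116, an established human colorectal carcinoma cell line, transfected either with a control siRNA (labelled HCT116NC) or with an siRNA against PHF5A (labelled HCT116si2). PHF5A is a subunit of SF3b, the part of the splicing machinery that binds the branch point of introns, and the study asked which transcripts it regulates. Each group is 1 library, so the differences below lack any replicate check and no test across samples was possible. The siRNA sequence and the time after transfection were not given in the sources used here.

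Zinc finger proteins of the C2H2 kind bind DNA through a row of short finger modules, each holding a zinc ion between a pair of cysteines and a pair of histidines. Most of those on chromosome 19 arose by tandem duplication and lie in clusters of related genes. Many carry a KRAB domain, which recruits the corepressor TRIM28 and through it the histone methyltransferase SETDB1, and several are known to silence transposable elements. Others lack KRAB, and the partners and targets of most are little known.

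To show what these genes share and how they differ, the stretch coding for the first finger is given for a pair of the most abundant genes here, ZNF787 and ZNF574, and for a pair of the lowest-ratio ones, ZNF431 and ZNF91. Each runs 5′ to 3′ from the first cysteine codon to the last histidine codon of the GENCODE 29 coding sequence, with the cysteine and histidine codons in capitals.
ZNF787: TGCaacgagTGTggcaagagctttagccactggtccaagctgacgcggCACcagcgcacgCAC
ZNF574: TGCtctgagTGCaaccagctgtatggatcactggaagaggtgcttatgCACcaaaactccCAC
ZNF431: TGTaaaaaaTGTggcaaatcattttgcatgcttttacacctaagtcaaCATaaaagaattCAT
ZNF91: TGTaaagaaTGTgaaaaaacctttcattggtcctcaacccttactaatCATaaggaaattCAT
Each is the first match to a fixed spacing of cysteines and histidines, so the shared length of 63 bases is set by the search. Their GC content was 61.9%, 50.8%, 28.6% and 31.7%. That spacing is written in GC-rich letters in ZNF787 and in AT-rich letters in ZNF431 and ZNF91. These 2 do not stand for all low ratios, since ZNF497, also among the 10 lowest, has 70.1% GC in its coding sequence.

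The promoters of 4 genes whose ratios are described below are shown next, as the 250 bases before the RefSeq start site (GRCh38.p14, gene strand). Capitals mark matches, on either strand, to the core of an element bound by ZNF143, here ACTAC, any 4 bases and CCCAG. ZNF497 lies at chr19:58362752-58363001 (minus strand), ZNF837 at chr19:58381031-58381280 (minus), ZNF749 at chr19:57435075-57435324 (plus) and ZNF776 at chr19:57746565-57746814 (plus).
ZNF497: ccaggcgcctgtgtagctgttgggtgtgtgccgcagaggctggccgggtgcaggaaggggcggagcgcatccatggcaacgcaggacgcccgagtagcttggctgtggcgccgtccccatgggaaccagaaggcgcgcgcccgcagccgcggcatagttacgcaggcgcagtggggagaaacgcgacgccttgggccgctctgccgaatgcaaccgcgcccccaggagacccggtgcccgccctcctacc
ZNF837: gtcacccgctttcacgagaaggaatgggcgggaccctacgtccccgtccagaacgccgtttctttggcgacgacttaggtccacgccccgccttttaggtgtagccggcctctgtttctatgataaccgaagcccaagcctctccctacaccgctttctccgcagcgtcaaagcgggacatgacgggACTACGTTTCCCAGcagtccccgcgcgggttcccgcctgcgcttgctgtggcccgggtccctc
ZNF749: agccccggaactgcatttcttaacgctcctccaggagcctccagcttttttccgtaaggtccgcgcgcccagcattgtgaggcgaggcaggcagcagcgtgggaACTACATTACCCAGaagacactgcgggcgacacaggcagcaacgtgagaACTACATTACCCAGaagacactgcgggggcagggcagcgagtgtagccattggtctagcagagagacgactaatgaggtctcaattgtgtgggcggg
ZNF776: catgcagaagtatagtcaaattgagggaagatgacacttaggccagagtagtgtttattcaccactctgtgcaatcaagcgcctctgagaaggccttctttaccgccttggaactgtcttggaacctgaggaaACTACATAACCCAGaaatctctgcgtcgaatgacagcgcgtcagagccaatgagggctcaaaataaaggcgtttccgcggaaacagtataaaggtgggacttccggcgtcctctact
The element occurs 2 times in the ZNF749 stretch, 1 time each in those of ZNF837 and ZNF776, and not in that of ZNF497.

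Library totals were 26552789 counts for the control and 25897412 for the knockdown. PHF5A itself had 367 and 91 counts and was 3.93-fold lower after scaling to the library total, the direction its label states. A list of 12 heart muscle genes took 97219 counts (0.366%) in the control library, between 334 and 65612 a gene, and 296 counts (0.00114%) in the knockdown library, where 5 of the 12 were at 0 and TNNI3 alone held 229. Of 7 colorectal epithelial genes, KRT8, KRT18 and KRT19 were abundant in both libraries, EPCAM had 412 and 501 counts, CDH1 913 and 843, VIL1 0 and 1, and CDX2, a transcription factor of intestinal identity, 822 and 367, which is 2.18-fold lower (1.93 to 2.48). Whether RNA from other cells added to the control values of zinc finger genes was not tested. In bulk RNA, fewer cells that express a gene and less RNA per cell cannot be told apart.

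The chromosome 19 ZNF genes were mostly near or below the depth of these libraries. In total they took 34140 counts (0.129%) of the control library and 38202 (0.148%) of the knockdown library, a ratio of 1.15 (95% exact interval 1.13 to 1.16, which like all intervals here covers counting error only). Counts summed over both libraries were 0 for 47 genes, between 1 and 49 for 119, and at least 50, the minimum for a ratio, for 96. None of the 16 pseudogenes reached the minimum. Just above it lay ZNF552 (20 control and 30 knockdown counts) and ZNF816 (30 and 21), and just below it ZNF419 (38 and 11) and ZNF225 (21 and 28). A level of 1 FPKM (fragments scaled to gene length and library total) or more was found for 29 genes with control siRNA and for 26 with PHF5A siRNA.

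The level was carried by a few genes, most of them higher in the knockdown library by less than 2-fold after scaling to the library total. The 8 with the highest mean FPKM held 56.0% of all counts on the chromosome 19 ZNF genes. At that scaling 7 of the 8 had a counting interval above 1. TPM rescaling lowers every log2 ratio by the same constant, taking the median of the genes with a ratio from 0.04 to -0.38. Which of the 8 lie above 1 therefore depends on the scaling, and the values below are for the library total. ZNF581 had 26.1 FPKM with control siRNA and 38.9 with PHF5A siRNA, a ratio of 1.49 (1.41 to 1.57). ZNF787 had 27.0 and 36.9 FPKM, a ratio of 1.37 (1.30 to 1.43). Both were higher in the knockdown library by more than counting error. ZNF579 (16.8 and 23.7 FPKM) and ZNF865 (6.15 and 11.4) were higher by the same measure, with ratios of 1.41 and 1.86. ZNF574 had 6871 and 6830 counts, the most of any of these genes, and its ratio of 1.02 had an interval of 0.985 to 1.05. It is the one gene of the 8 whose interval includes 1. ZNF428 (1.15), ZNF526 (1.09) and ZNF296 (1.24) lay between these ratios. ZNF581 overlaps the ZNF580 entry, which had 893 and 766 counts, so reads of these neighbours may not be cleanly separated.

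**Figure D1:**
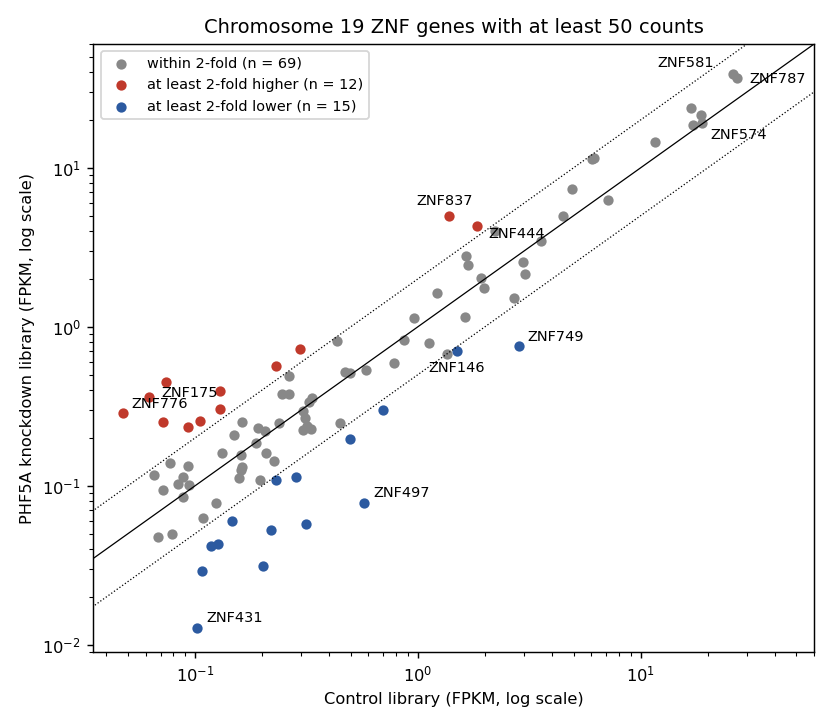
Each point is 1 of the 96 chromosome 19 ZNF genes with at least 50 counts, with its FPKM in the control library (horizontal) and in the knockdown library (vertical), both on log scales. The solid line marks equal FPKM and the dotted lines 2-fold, and the points outside them lie mostly below 1 FPKM, with ZNF837, ZNF444, ZNF749 and ZNF146 the exceptions.

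By the ratio of counts scaled to the library total, knockdown over control, 12 of the 96 genes (12.5%) were higher by 2-fold or more and 15 (15.6%) were lower by as much. Of all 13452 genes with at least 50 counts, 5.32% were higher and 16.4% lower by that measure. With all genes centred on their median, which moves the centre from -0.23 to 0 on the log2 scale, the ZNF genes counted 19 higher and 12 lower. TPM rescaling gave 6 higher and 23 lower, so the balance of directions depends on the scaling. The median log2 ratio was 0.04 for the 96 genes and -0.23 for all genes, and the middle 50% of the 96 lay between -0.52 and 0.55. The counting interval lay above 1 for 32 genes and below 1 for 28, against 23.8% and 48.1% of all genes. It included 1 for the remaining 36. With 1 library per group none of these differences between gene groups was tested.

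The ZNF genes were shallower than all genes, with a median of 134.5 summed counts against 559, so shares were also compared by range of depth. Of 36 ZNF genes with 50 to under 100 counts, 5 (13.9%) were higher by 2-fold and 10 (27.8%) lower. For protein-coding genes of that depth the shares were 10.4% and 32.6%. With 100 to under 400 counts, 5 of 29 (17.2%) were higher and 3 (10.3%) lower, against 6.12% and 21.6%. With 400 to under 20000 counts, 2 of 31 (6.45%) were higher and 2 (6.45%) lower, against 3.01% and 11.7%. In each range the ZNF genes had the higher share of higher genes and the smaller share of lower ones. Each of their shares rests on 10 genes or fewer, and the differences were not tested. Their median was above that of all protein-coding genes in each range too. For the 36 ZNF genes with 50 to under 100 counts the median log2 ratio was -0.40, and for protein-coding genes of that depth -0.47. For 29 with 100 to under 400 counts it was 0.04 against -0.29, and for 31 with 400 to under 20000 counts it was 0.20 against -0.20. The gap was therefore narrow in the shallow range and wider above it. Numbered ZNF genes on other chromosomes lay at the same centre, with a median of 0.01 over 183 genes. Of those, 20 were at least 2-fold higher and 10 lower. The other 786 protein-coding genes of chromosome 19 had a median of -0.07, with 50 higher and 79 lower.

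**Figure D2:**
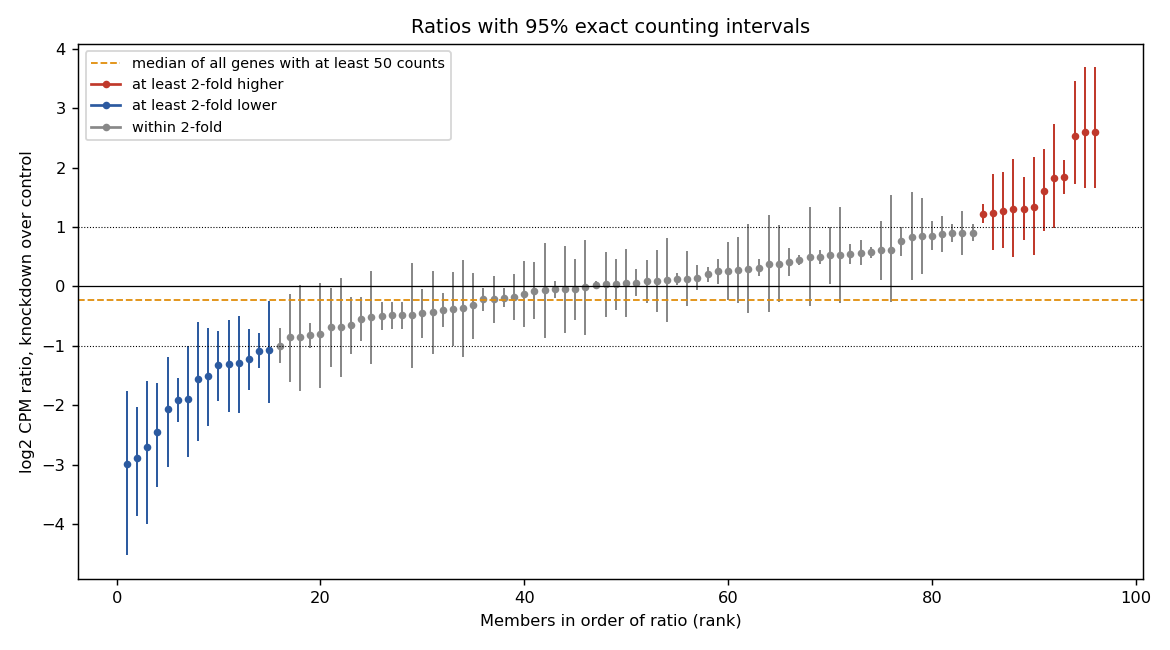
The log2 ratio of counts scaled to the library total, knockdown over control, is shown for the 96 genes in rank order, with vertical lines for 95% exact counting intervals. The dashed line is the median of all genes with at least 50 counts (-0.23), and the intervals of the 27 genes past 2-fold all exclude a log2 ratio of 0.

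Below the minimum the zinc finger genes went the other way. The 166 genes with fewer than 50 counts together held 1409 control and 828 knockdown counts, 1.66-fold lower after scaling (1.52 to 1.81). The 7523 other protein-coding genes under the minimum were 1.497-fold lower (1.47 to 1.52), and numbered ZNF genes elsewhere 1.16-fold lower (1.04 to 1.29). Of the 119 with any count, 48 (40.3%) were counted in the control library alone and 6 (5.04%) in the knockdown library alone. The same shares were 28.0% and 16.1% of the 3816 other protein-coding genes with any count under the minimum. ZNF418, with 19 and 0 counts, is one example, chosen after its values were seen.

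Among the genes higher in the knockdown library, those of low count had the highest ratios. ZNF776 (chromosome 19, 57746796 to 57758159), whose promoter is shown above, had 11 control and 65 knockdown counts, a ratio of 6.06 (3.17 to 12.7). With the overlapping entry AC003006.7 (12 and 5 counts) its log2 ratio was 1.64, in place of 2.60. ZNF175, a KRAB protein known as a repressor of the HIV promoter, had 15 and 85 counts, a ratio of 5.81 (3.33 to 10.8). Both were under 0.4 FPKM in both libraries. ZNF490, described below, had the same counts as ZNF776. The next ratio, 3.59, was that of ZNF837, a deeper gene also described below. ZNF845 (16 and 55 counts, ratio 3.52), ZNF616 (27 and 80, ratio 3.04) and ZNF430 (20 and 49, ratio 2.51) followed, at a depth like that of ZNF776 and ZNF175. ZNF304, a KRAB protein described as recruiting a silencing complex to tumour suppressor genes in colorectal cancer cells, had 47 and 113 counts, a ratio of 2.47 (1.74 to 3.54). ZNF77 (20 and 48) and ZNF766 (33 and 78) had ratios of 2.46 and 2.42.

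Of the 12 genes past 2-fold higher, those with the most counts behind them were ZNF837 and ZNF444, neither with a KRAB match. ZNF837 (58367618 to 58381060) had 147 and 514 counts, 1.38 and 4.95 FPKM, a ratio of 3.59 (2.98 to 4.34). It overlaps no other entry of the table. ZNF444 (56132599 to 56160893), which carries a SCAN domain for pairing with other such proteins, had 626 and 1428 counts, 1.85 and 4.32 FPKM, a ratio of 2.34 (2.13 to 2.57). These counting intervals are far narrower than those of ZNF776 or ZNF175.

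For ZNF490 the higher ratio did not hold when an overlapping entry was added. The gene had 11 and 65 counts, but the overlapping entry CTD-2192J16.20 on the same strand had 104 and 11, and 70.8% of the 50-base stretches of the ZNF490 transcript also occur in that entry. Their sum was 115 and 76 counts, a ratio of 0.678 (0.5003 to 0.913), so the direction of the sum turns. CTD-2192J16.20 also holds 81.0% of the 50-base stretches of ZNF564 (1 and 3 counts). Its counts therefore cannot be assigned to ZNF490 alone. ZNF845 overlaps ZNF525 (27 and 20 counts), and their summed counts of 43 and 75 gave a log2 ratio of 0.84, short of 2-fold.

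Among the genes lower in the knockdown library, ZNF431 (21142024 to 21196053), a KRAB gene of the cluster next to the centromere, had the lowest ratio. It had 49 and 6 counts, 7.97-fold lower (3.41 to 22.8). ZNF497 (58354357 to 58362848) had 98 and 13 counts, 7.35-fold lower (4.11 to 14.3). Summed with the overlapping antisense entry CTD-2619J13.3 (12 and 14 counts) the log2 ratio was -1.99, and with antisense A1BG-AS1 (20 and 0) it was -3.15, against -2.88 alone. ZNF497 and ZNF837 are next to each other on the same strand, both GC-rich and without a KRAB match, and their ratios went opposite ways.

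ZNF749 (57435329 to 57445485) was the lower gene with the highest level among the 10 lowest, with 323 and 84 counts, 2.83 and 0.756 FPKM, 3.75-fold lower (2.94 to 4.83). Like ZNF776, it has the ZNF143-type element in its promoter, and the pair went opposite ways. ZNF426 (53 and 8 counts, 6.46-fold lower), ZNF530 (84 and 15, 5.46-fold) and ZNF224 (60 and 14, 4.18-fold), a known KRAB repressor, had lower ratios than ZNF749 at lower levels. ZNF91, a KRAB protein with 32 finger matches known to silence SVA transposons, had 55 and 19 counts, 2.82-fold lower (1.65 to 5.04). ZNF551 had 95 and 37 counts, 2.50-fold lower. ZNF146, a protein made almost entirely of fingers, had 340 and 157 counts, a log2 ratio of -1.08. ZNF701 had 39 and 13 counts (log2 ratio -1.55), but with the overlapping ZNF808 the sum of 96 and 56 gave -0.74.

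Close relatives were compared where both were counted, a choice made after the values were seen. ZNF780A (53 and 14 counts) and its neighbour ZNF780B (50 and 20) were both lower, with log2 ratios of -1.88 and -1.29. ZNF324 (1092 and 1031) and ZNF324B (354 and 361) were both level, at -0.05 and 0.06. ZNF417 (56 and 22) and ZNF587 (27 and 47), a pair known to bind endogenous retroviruses, went opposite ways, at -1.31 and 0.84. These 2 share sequence, since 37.7% of the 50-base stretches of ZNF417 occur in ZNF587, and their summed ratio was 0.852 (0.610 to 1.19). ZNF320 (56 and 34 counts) and ZNF468 (70 and 98) also went opposite ways. Of the ZNF320 stretches 93.3% occur in ZNF468, the highest share with 1 other gene among the 96, and their summed ratio was 1.07 (0.835 to 1.38). Single values of genes that share this much sequence are uncertain for this reason. For ZNF320 the sharing was not mutual, since 9.91% of the ZNF468 stretches occur in transcripts of any other gene. Of the 96 genes, 7 shared at least 25% of their 50-base stretches with transcripts of other genes, and 66 overlapped another entry. Of the 27 genes past 2-fold, 18 overlapped another entry.

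By position the genes formed 10 clusters, defined as runs of at least 5 with gaps under 500 kb, which held 247 of the 262. The clusters differed in how many genes were counted at all. In the cluster from 19668796 to 24129961, next to the centromere on the short arm, 18 of 41 genes had 0 counts in both libraries and 5 reached 50. In the cluster at the end of the long arm, from 57191500 to 58481230, 2 of 43 were at 0 and 25 reached 50. In the latter, 3 genes were higher by 2-fold (ZNF776, ZNF837 and ZNF304) and 5 lower (ZNF497, ZNF530, ZNF749, ZNF551 and ZNF417), with a median log2 ratio of -0.05. In the cluster from 51571298 to 53580269, 4 of 17 counted genes were higher and 2 lower, from ZNF175 at 2.54 to ZNF701 at -1.55.

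The cluster from 55476332 to 56671783 stood out by level. It holds ZNF787, ZNF581, ZNF579 and ZNF865, and 5 of its 17 genes match the KRAB pattern. Its summed counts were 10193 and 14043, and the 9 counted genes had a median log2 ratio of 0.50, from ZNF628 at -0.22 to ZNF444 at 1.23. The 6 counted genes of the cluster from 43525497 to 44500524 had a median of 0.16, and the 10 from 8509678 to 9793180 one of -0.41. Over neighbouring pairs of counted genes along the chromosome, 53 of 95 lay on the same side of the median of all genes and 42 on opposite sides. The counted ZNF genes had a median above that of all genes, which in any order favours pairs on the same side. These counts therefore do not show that neighbours go together. The short arm had 4 genes higher and 3 lower of 26, and the long arm 8 and 12 of 70.

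**Figure D3:**
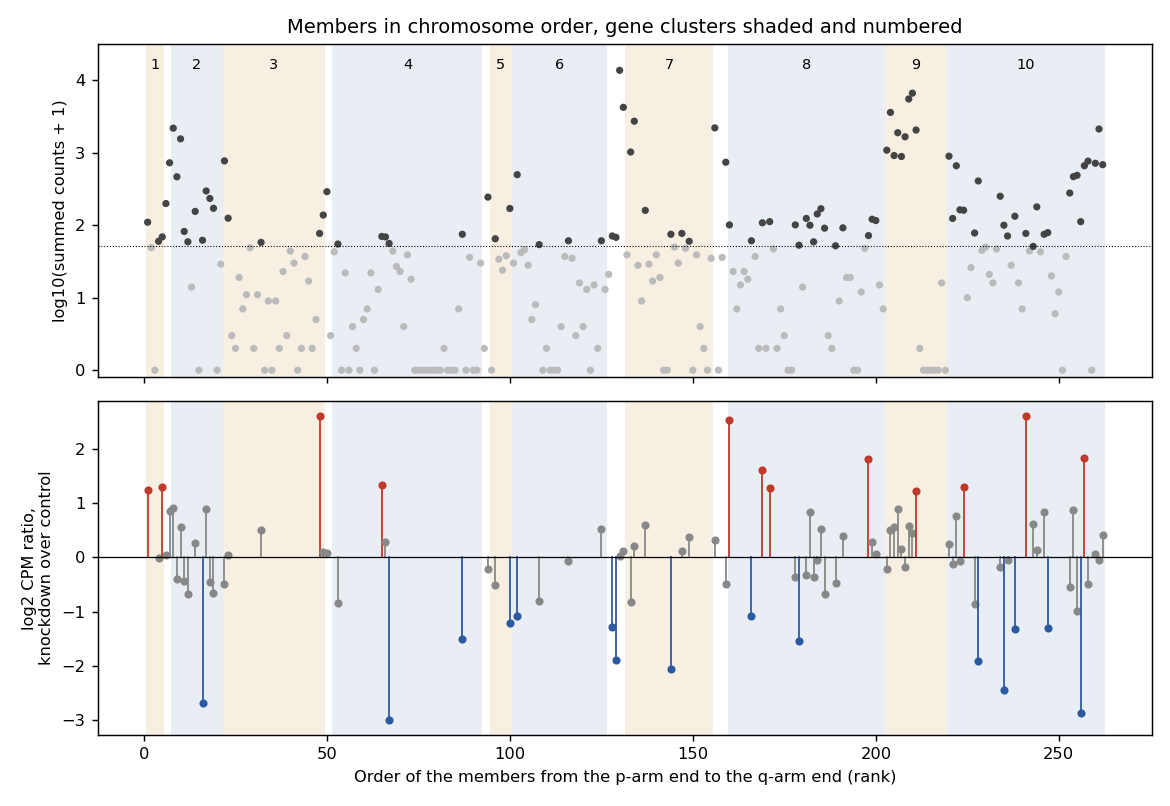
The 262 genes are placed in chromosome order, with the 10 clusters shaded and numbered. The upper panel gives log10 of the counts summed over both libraries plus 1 (dotted line, the minimum of 50), and the lower panel the log2 ratio for the 96 genes above it. Clusters 4, 8 and 10 hold genes past 2-fold in both directions, and the other 7 clusters in 1 direction.

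A KRAB domain was looked for by a pattern in the translated GENCODE 29 coding sequences, and fingers by the spacing of cysteines and histidines. Of the 246 genes with a coding transcript, 179 matched the KRAB pattern and 67 did not. The pattern misses divergent KRAB boxes such as that of ZNF224, and a looser one, added after the values were seen, matched 25 more. The median number of fingers was 13 with the pattern and 11 without. SCAN was matched in 3 genes.

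Genes without the KRAB match were more abundant and had more counts behind them, with a median of 683 summed counts against 100, and the middle 50% of their log2 ratios spanned 0.79 against 1.20. Of 67, 37 reached the minimum, with median levels of 1.496 FPKM (control) and 1.52 FPKM (knockdown). Of the 179 with it, 59 reached the minimum, with medians of 0.206 and 0.230 FPKM. The median log2 ratio was 0.15 without the match and -0.06 with it. In the same order, 2 (5.41%) and 10 genes (16.9%) were at least 2-fold higher, against 5.32% of all genes. Lower by as much were 4 (10.8%) and 11 (18.6%), against 16.4% of all genes. With the looser pattern the medians were 0.14 over 30 genes and -0.03 over 66. ZNF444 and ZNF837 were the 2 higher genes without the match.

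Coding GC content moved with this split. The median was 62.4% without the KRAB match and 42.3% with it, and across the 96 genes mean FPKM and coding GC had a Spearman rho of 0.81. The log2 ratio followed coding GC weakly, with a rho of 0.20 over the same 96 genes, which share 2 libraries. The 21 genes without the match and with at least 50% GC had a median log2 ratio of 0.31, and the 16 under 50% GC one of 0.03. For genes with the match the values were 0.01 over 10 and -0.07 over 49. Over all protein-coding genes the medians were -0.22 at 50% GC or more and -0.27 below it. The part of GC content in the ratios was not tested.

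**Figure D4:**
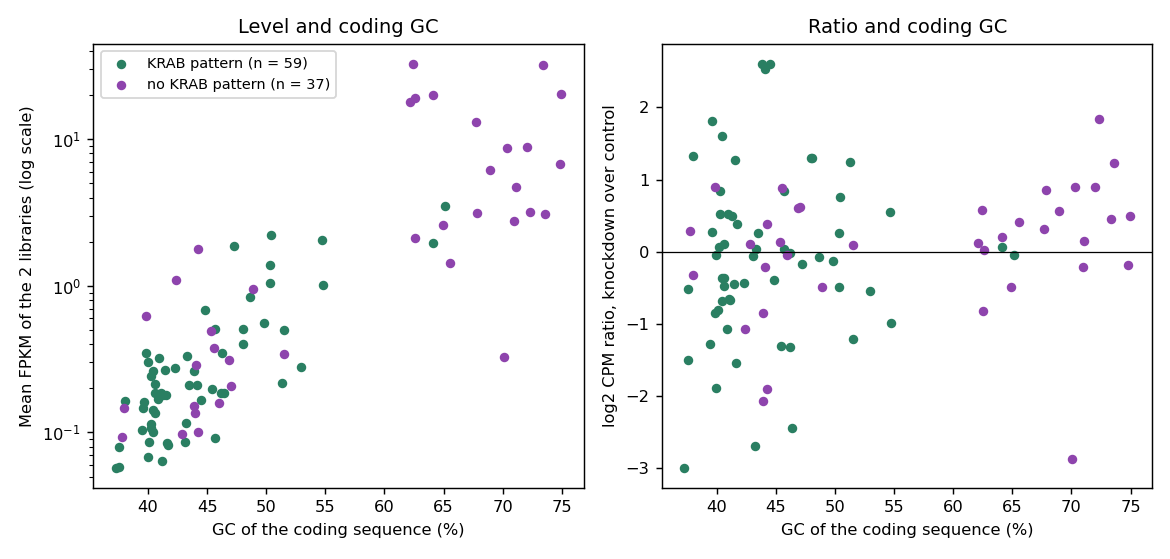
Coding GC content (horizontal, %) is set against the mean FPKM of the 2 libraries (left, log scale) and against the log2 ratio of knockdown to control (right) for the 96 genes, coloured by the KRAB pattern. Genes with the match gather near 42.3% GC at low FPKM, and the most abundant genes lie above 60% GC without it.

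Promoters were examined for features that these genes share. RefSeq windows of 250 bases before and 50 after the start were found for 213 of the 262 genes (261 windows, since a gene can have several). A match to the ZNF143-type element on either strand was present in 21.8% of these windows, in 7.37% of those of ZNF genes elsewhere, in 2.20% of those of other protein-coding genes of chromosome 19, and in 1.49% of all 35116 windows. The ETS core CCGGAAG was present in 39.5%, 28.8%, 13.6% and 10.3%. The GC box GGGCGG was present in 65.1% of the windows of chromosome 19 ZNF genes and in 45.0% of all windows, and the TATA box TATAAA in 2.68% and 11.5%. The first motif was chosen after the promoters printed above had been read, and windows of related genes are copies of one another to varying degrees. A match describes letters and does not show binding.

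**Figure D5:**
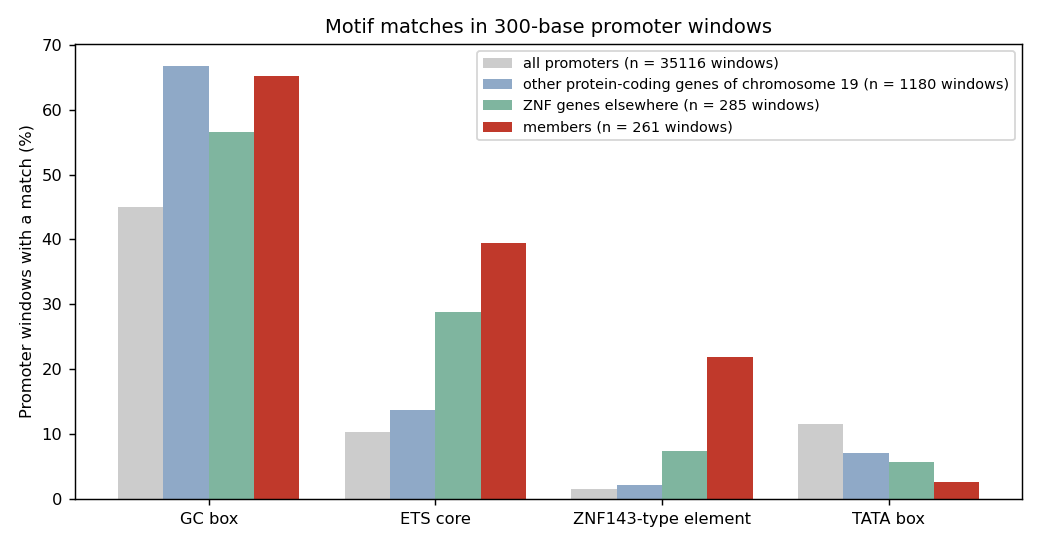
Bars give the share of promoter windows of 300 bases with at least 1 match to each motif on either strand, for all promoters, other protein-coding genes of chromosome 19, numbered ZNF genes on other chromosomes and the chromosome 19 ZNF genes. The ZNF143-type element is at 21.8% in the chromosome 19 ZNF genes and at 1.49% in all windows.

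Counted genes with the element lay on both sides. Of the 17 counted genes with it in a window, 5 were at least 2-fold higher and 3 lower, with log2 ratios from -2.45 to 2.60 and a median of 0.55. Of the 72 without it, 7 were higher and 11 lower, with a median of 0.01. The element was chosen after reading promoters of genes picked for their ratios, and ZNF837, ZNF749 and ZNF776 from that set are among the 17. The split is therefore not independent of the ratios, and the difference between these groups was not tested. The 7 remaining genes had no window.

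A list of KRAB corepressors and other chromatin factors was mostly lower, by less than 2-fold. At this scaling a log2 ratio above 0 was found for 5 of its 27 genes and for 4942 of all 13452. All 27 genes on the list, drawn up from general knowledge, were counted. None was higher by 2-fold, 2 were lower by 2-fold, and the median log2 ratio was -0.34 against -0.23 for all genes. TRIM28, which binds the KRAB domain and is itself on chromosome 19, had 70428 and 50575 counts, a ratio of 0.736 (0.728 to 0.745). SETDB1, which writes the repressive H3K9 mark, had a ratio of 0.795 (0.724 to 0.872). CHD3, a remodeller of the NuRD complex, had 1129 and 268 counts and was 4.11-fold lower (3.59 to 4.71). HDAC1, a histone deacetylase, was 2.05-fold lower (1.92 to 2.18). SMARCAD1 and RCOR1 had log2 ratios of -0.96 and -0.93. The share lower by 2-fold was 7.41%, against 16.4% of all genes. The counting interval was below 1 for 18 of the 27, against 48.1% of all genes. The list was deeper, with a median of 1008 summed counts against 559 for all genes. Of 7035 protein-coding genes with 400 to under 20000 counts, 3790 had an interval below 1. It was above 1 for 1 of the 27, MTA1 (named after its value was seen), with a ratio of 1.76, against 23.8% of all genes.

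A pair of chromosome 19 ZNF genes with known roles near these results were read after their values were seen. ZNF274, which brings SETDB1 to the ends of zinc finger genes, had 166 and 111 counts, a ratio of 0.686 (0.534 to 0.877). ZNF473, a part of the machinery that forms histone mRNA ends, had 436 and 302 counts, a ratio of 0.710 (0.611 to 0.824). Both were lower than the centre of these genes and within 2-fold.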

How the data were processed

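Total RNA libraries were made with a stranded kit, per the labels' protocols. HISAT2 2.0.4, Cuffdiff and hg38 (GRCh38) are named in the submitters' processing notes. Which annotation was counted, whether counting used strand, and how multiply matching reads were handled were not given in the sources used here. Per the file headers, the deposited table holds a whole-number count and an FPKM per gene and library. The deposited FPKM equals the count divided by a fixed gene length and the library total, within 0.0241%. Of 50869 lines, 2 broken ones were left out.

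Ratios were computed from counts scaled to the library total, for genes with at least 50 counts summed, with 95% exact conditional binomial (Clopper-Pearson) intervals. They cover counting error only, and may be too narrow even for that, since reads are not independent molecules. A library at 0 took a floor of 3 counts. Calls were by size, at 2-fold. Gene type, strand, coding sequence and shared 50-base stretches came from GENCODE 29, which matched 50110 rows. The loci printed are those of the deposited table. The KRAB pattern was a W, 8 to 16 residues, Y or F, 2 residues, V and M within the first 200 residues, and the looser one kept only Y or F, 2 residues, V and M or T. The 4 promoter motifs, the looser pattern and the sharing limit were chosen after values and sequences were seen. Promoters are from RefSeq GRCh38.p14. Named genes were the 10 highest and 10 lowest ratios, the 8 highest mean FPKM, the genes beside the count minimum, cluster extremes, and TRIM28, SETDB1 and the 4 corepressors with the largest absolute log2 ratio. The genes and lists were chosen with earlier results of these data known. The calculation was tested on data simulated with counting error alone, so that test does not show how the intervals hold for real libraries. Python 3.11.15, numpy 2.4.6, pandas 2.3.3, scipy 1.17.1, Biopython 1.88 and matplotlib 3.10.9 were used.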

Additional observations from a re-analysis of the deposited data

How the results depend on the processing

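No paired analysis was possible because each group is 1 library. As reported, 12 genes were higher and 15 lower by 2-fold, with a median log2 ratio of 0.04. Scaling moved the median of all genes from -0.23 to 0 with median centring, -0.02 with upper-quartile scaling, -0.07 with the protein-coding total and -0.65 with TPM rescaling, which add 1 constant to every gene, so the gap of 0.26 to the chromosome 19 ZNF genes is fixed by construction. The median of the latter was 0.26 with centring, 0.24 with upper-quartile scaling and -0.38 with TPM rescaling. Higher genes then numbered 19, 19 and 6, and TPM rescaling gave 23 lower. Higher genes were 44.4% of calls as reported, 61.3% with centring, 59.4% with upper-quartile scaling, 58.1% with the protein-coding total and 20.7% with TPM rescaling. With FPKM plus 1 there was 1 higher and 1 lower, and with FPKM plus 0.1 there were 9 and 5, which turns the balance. A minimum of 20 counts gave 18 higher and 34 lower, of 100 counts 7 higher and 5 lower, and of 200 counts 2 and 2. With no minimum and a prior of 0.5 counts there were 28 higher and 85 lower with a median of -0.45, which is below the -0.25 of all genes. A 1.5-fold threshold gave 22 and 23, intervals excluding 1 gave 32 and 28, and genes with no overlapping entry gave 5 and 4. The sharing limit of 25% was added after the values were seen and moved no count by over 1.5 times. Of the 96 counted genes, 36 had under 100 counts, and so did 15 of the 27 past 2-fold.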

Other observations

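Of 21 other protein-coding entries of chromosome 19 with zinc finger names outside the naming rule (ZFP, ZSCAN, ZBTB, ZIM, ZIK1, PEG3 and read-through entries), 4 reached 50 counts. ZFP36, which encodes an RNA-binding protein that promotes mRNA decay and carries another kind of zinc finger, had 707 and 1668 counts, a ratio of 2.42 (2.21 to 2.64). ZSCAN5A had 87 and 121 counts, a ratio of 1.43 (1.07 to 1.90). ZBTB45 (1047 and 956 counts) and ZSCAN22 (502 and 456) had ratios of 0.936 and 0.931, with intervals that include 1. ZSCAN18, with 21 and 0 counts, was counted in the control library alone.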
